A study of Macaca mulatta with 304 samples.

Results

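The 10 genes of cytotoxic lymphocytes that were followed in whole blood were the granzymes GZMA, GZMB, GZMK and GZMM, the membrane-lytic proteins PRF1 and GNLY, the granule proteins NKG7 and CTSW, and the T-box transcription factors EOMES and TBX21. They were chosen by symbol and make up 10 of the 21070 genes counted, and all 10 passed the filter on low counts. Blood came from 28 healthy adult rhesus macaques of the Chinese sub-strain, 14 of each sex, drawn once before and repeatedly after the thorax was irradiated with photons. The lower dose (LD) group of 12 animals received 9.8 Gy and the higher dose (HD) group of 16 animals received 10.7 Gy. There were 24 control samples taken on Day -2, 151 irradiated samples of LD animals and 129 of HD animals. Of the irradiated samples, 272 fell on 15 scheduled days between Day 3 and Day 270, and 8 were final draws between scheduled days. All animals were given tramadol or buprenorphine in the weeks after irradiation, and animals with tachypnea were given dexamethasone, a glucocorticoid. The labels do not give which draws followed that treatment, so its part in any value below was not tested.

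Cytotoxic T cells and natural killer (NK) cells kill a target by releasing granules into the contact between the cells. Perforin, the product of PRF1, and granulysin (GNLY) open membranes, and granzymes, which are serine proteases, then enter the target and cleave its proteins. TBX21 (T-bet) and EOMES are transcription factors that drive the differentiation of these cells and the expression of their effector genes. In whole blood these transcripts come from a minority of the cells, so for every result below fewer cytotoxic cells and less RNA per cell cannot be told apart.

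Upstream sequence is shown for the 3 granzymes whose levels took different courses, with GZMA and GZMK higher on Day 21 and GZMB lower at the late days. Each run holds the 200 bases before the annotated start of the gene in the assembly Mmul_10, read on the strand of the gene, at chr6:53401282-53401481 for GZMA, chr7:86707260-86707459 for GZMB and chr6:53328924-53329123 for GZMK. Capitals mark the core bound by RUNX factors (TGTGGT, or ACCACA on the other strand) and a T-box half-site (TCACAC, or GTGTGA on the other strand).
GZMA: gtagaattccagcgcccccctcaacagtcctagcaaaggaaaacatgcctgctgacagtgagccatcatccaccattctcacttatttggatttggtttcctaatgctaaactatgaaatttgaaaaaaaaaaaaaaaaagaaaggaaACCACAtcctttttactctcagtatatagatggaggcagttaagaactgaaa
GZMB: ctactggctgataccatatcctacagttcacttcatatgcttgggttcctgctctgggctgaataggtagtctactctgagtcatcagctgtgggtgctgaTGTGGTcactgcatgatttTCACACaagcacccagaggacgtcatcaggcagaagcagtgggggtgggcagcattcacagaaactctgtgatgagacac
GZMK: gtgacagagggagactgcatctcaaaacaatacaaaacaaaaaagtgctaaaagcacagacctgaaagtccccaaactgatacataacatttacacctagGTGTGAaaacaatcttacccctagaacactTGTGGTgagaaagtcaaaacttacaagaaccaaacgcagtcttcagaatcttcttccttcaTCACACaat
The RUNX core stood in this window in 4 of the 10 genes (GZMA, GZMB, GZMK and NKG7) and in 8.9% of the windows of 21059 genes. The T-box half-site stood in 2 of the 10, with 1 match in GZMB and 2 in GZMK, and in 8.2% of all windows. A match of 6 letters is a description of the sequence and was not tested as a binding site. GZMA (53401482 to 53408723) and GZMK (53329124 to 53338866) both lie on chromosome 6, and GZMB on chromosome 7 (86703929 to 86707259). GZMB shares with GZMH, a related granzyme gene, 26 of its 931 words of 50 bases (2.79%), so reads from that stretch could belong to either gene. No such word of the other 9 genes occurred in another gene.

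The total count of a sample lay between 2840219 and 23638161 (median 8227563). Samples were grouped into 3 series, called A, B and C here. Library numbers of series A and B fell into separate ranges, and series C held the samples with no number of their own. What the series mean is not given in the sources used here. The control samples came from 24 of the 28 animals, and the 4 HD animals without one entered no comparison with control. Of the control samples 20 were of series A and 4, all of HD animals, of series C. Samples of Day 3 to 15 were of the series of their own control, and samples from Day 30 onward were of series B or C. On Day 21 the sample shared the series of the control in 16 of 24 animals, of which 12 were LD animals. On later days at most 4 animals had such a sample, so later comparisons with control also compare series. Values within 1 series, against control or against Day 30, are given below for some of the genes and days. Among the blood cell markers, the summed level of 9 erythroid genes had a median of 6209.5 CPM (read counts relative to a library of fixed size, after upper quartile scaling) in control samples and 17455 in samples of Day 3 to 21, and that of 8 neutrophil genes was 2977 in control samples and 5814 after Day 90.

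Before irradiation GZMB, GNLY, NKG7 and PRF1 stood highest. Per kilobase of exon, GZMB led with 368 ± 195.15 CPM (mean ± SD, n = 24 animals), followed by GNLY at 183 ± 116.8, NKG7 at 140 ± 70.2 and PRF1 at 122.5 ± 59.03. CTSW, which encodes the cysteine protease cathepsin W, stood at 45.3 ± 17.3 and TBX21 at 43.4 ± 14.6. GZMK, a granzyme of less differentiated memory T cells, followed at 25.7 ± 15.9, then GZMA at 21.2 ± 17.99, EOMES at 16.6 ± 6.51 and GZMM at 14.8 ± 7.90. Only the steps from PRF1 to CTSW and from TBX21 to GZMK were larger than the SD of both neighbours. The other steps were not larger than both SDs. All genes were measured in the same samples, and the order within single animals was not tested.

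Animals kept their own level of several of these genes. For GZMA, a tryptase among the granzymes, 68.7% of the variance of log2 CPM over all samples lay between animals, against a median of 13.1% over all genes tested, and 120 of the 13751 genes had a larger share. The 16 samples of the LD male B1004 had a median of 2.69 CPM of GZMA and a highest value of 8.27 CPM. The LD females B1502 and B1506 had medians of 3.08 and 3.20 CPM. The 8 samples of the HD male B2005 had a median of 63.9 CPM, and their lowest value, 41.6 CPM, lay above the highest value of those 3 animals, 11.3 CPM. In B1502 no read of GZMA was counted on Day 90 or Day 150. At the totals of those samples, 7738307 and 2840219, a count of 0 allows up to 0.388 and 1.06 CPM (unscaled), as far as counting error goes. The share between animals was also high for GZMM (64.2%), GNLY (56.1%) and EOMES (52.5%), and lowest for TBX21 (25.9%). The LD female B1504 had the lowest mean log2 level of 7 of the 10 genes (GZMB, PRF1, GNLY, NKG7, CTSW, EOMES and TBX21).

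**Figure D1:**
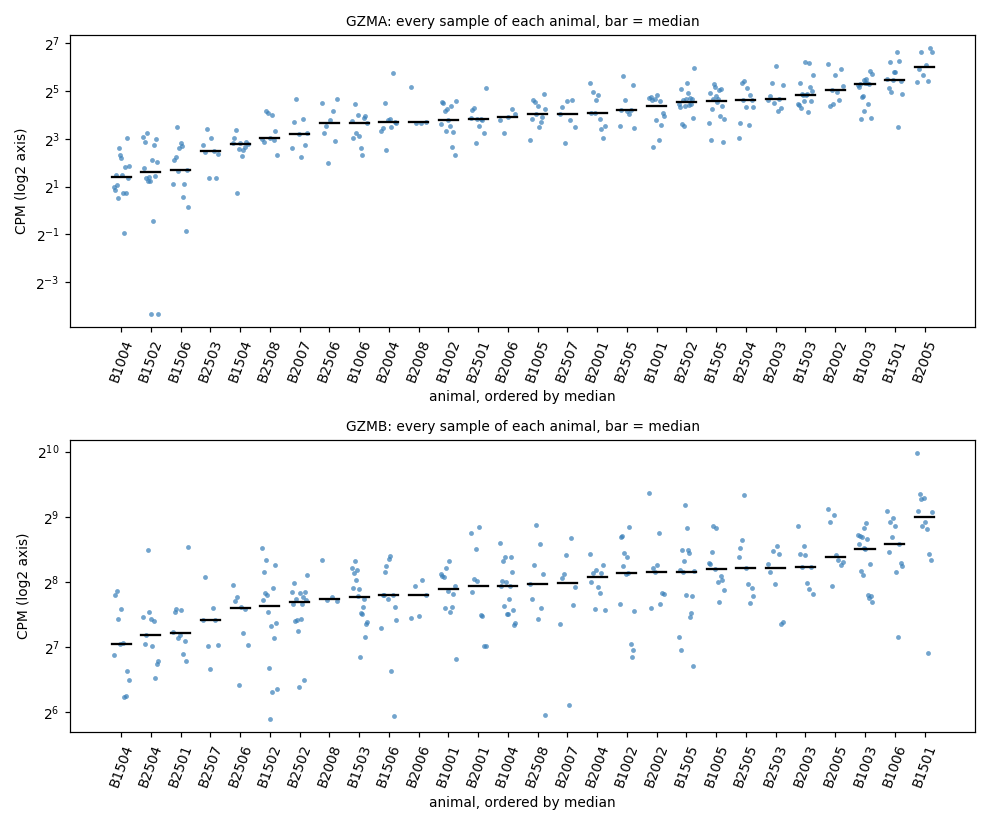
Level of GZMA (top) and GZMB (bottom) in CPM on a log2 axis in every sample of each of the 28 animals, ordered by the animal's median (bar). For GZMA the animal medians ran from 2.69 to 63.9 CPM, and the 2 samples of B1502 with a count of 0 are drawn at the bottom edge.

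Each animal's samples were then compared with its own control sample in 3 time windows, early (Day 3 to 21), medium (after Day 21 to Day 90) and late (after Day 90), with the counts of an animal summed. The medium and late windows also held the final draws between scheduled days. A gene was counted as called at an adjusted p of at most 0.05 in edgeR's quasi-likelihood test and a fold change of at least 1.5. None of the 10 genes was called at early time points, when 7.53% of all genes were, by edgeR or by DESeq2. At an unadjusted p under 0.05 in edgeR there were 4 of the 10, and 7596 of all 13751 genes tested. By the adjusted p alone 4 of the 10 fell, against 27.9% of all genes, and none rose. These were TBX21 (log2 fold change -0.49 ± 0.08 (SE), adjusted p = 7.24e-06, lower in 21 of 24 animals), EOMES (-0.39 ± 0.07, adjusted p = 2.52e-05, lower in 21), PRF1 (-0.37 ± 0.10, adjusted p = 0.00193, lower in 19) and GNLY (-0.34 ± 0.09, adjusted p = 0.00198, lower in 19).

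At medium time points again none was called by edgeR or DESeq2, against 5.75% of all genes. Of the 10 genes 6 had an unadjusted p under 0.05 in edgeR, and of all 13751 genes 7141 did. By the adjusted p alone 4 of the 10 fell (25.4% of all genes) and 2 rose (19.9% of all genes). GZMB fell most, from a mean of 361 ± 191 CPM (SD) in control samples to 244 ± 78.4 CPM (log2 fold change -0.47, adjusted p = 0.000284, 24 animals). CTSW, PRF1 and GNLY fell by 0.29, 0.29 and 0.21 on the log2 scale. GZMK rose by a log2 fold change of 0.46 (adjusted p = 0.00407, higher in 17 of 24 animals), and NKG7, a membrane protein of the granules, by 0.28 (adjusted p = 0.0396, higher in 15). In the 4 HD animals with control and medium samples of series C, NKG7 had the opposite sign (-0.42, adjusted p = 0.217), while GZMK was at 0.74 (adjusted p = 0.0365) and PRF1 at -0.87 (adjusted p = 0.0231), both then called. Without the replicate block GZMK had an adjusted p of 0.346 and NKG7 of 0.536.

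At late time points 2 of the 10 genes were called, both lower, against 32.5% of all genes called in either direction. Of the 14 animals compared 12 were LD animals, and for B1504 and B2504 the only late sample was a final draw between scheduled days. GZMB ranged from 117.3 to 1005.6 CPM with a median of 305 in the controls of the 14 animals, and the animal means of the late samples ranged from 75.05 to 328 CPM with a median of 171. The ranges overlapped, and 13 of 14 animals were lower than their own control (log2 fold change -0.89 ± 0.15 (SE), adjusted p = 9.15e-05). CTSW went from 66.4 ± 29.3 to 39.4 ± 14.2 CPM (SD), lower in 12 of 14 animals (-0.66 ± 0.18, adjusted p = 0.00418). With TMM scaling, with DESeq2 or without the filter CTSW came under the 1.5-fold limit, and so it did without animal B1006. By the adjusted p alone 4 of the 10 fell (33.5% of all genes), PRF1 by 0.58 and EOMES by 0.47 on the log2 scale beside the 2 called. Of all calls at late time points 42.96% were higher, against 54.6% with TMM scaling and 57.7% by DESeq2. The median of all genes stood at -0.13 at late time points and was 0.12 higher by DESeq2. Relative to it, GZMB was at -0.76, CTSW at -0.53, PRF1 at -0.45 and EOMES at -0.34. In only 1 of the 14 animals did any late sample share the series of its control, so at late time points series and time cannot be told apart in this comparison.

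**Figure D2:**
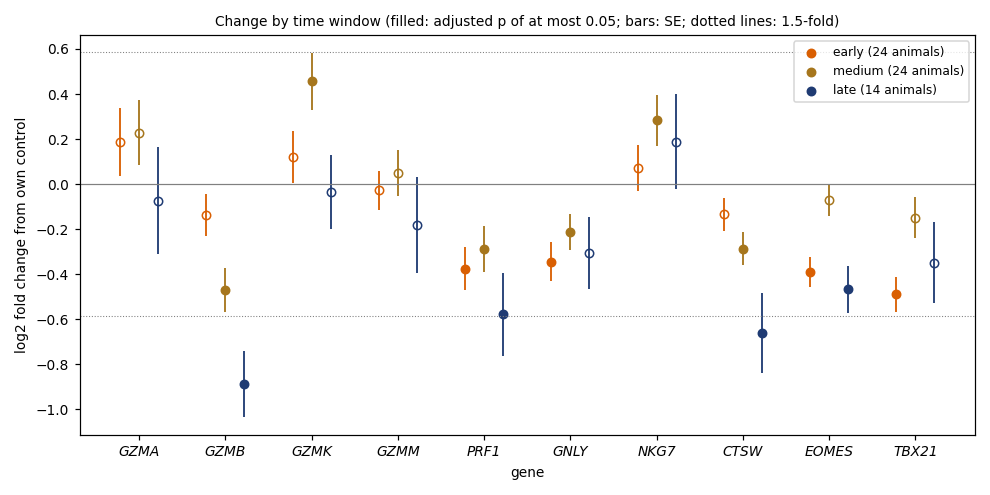
Log2 fold change of the 10 genes from the animal's own control at early, medium and late time points, with SE bars; filled points have an adjusted p of at most 0.05 and dotted lines mark a 1.5-fold change. GZMB went from -0.14 at early to -0.89 at late time points, and TBX21 and EOMES were lower at early than at medium time points.

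Day by day, 27 of the 150 pairs of a gene and a day were called, 21 lower and 6 higher, on 12 of the 15 days. Over the same days 12.6% of the pairs of all genes were called. On Day 3 there was 1 call among the 10 genes (11.5% of all genes), on Day 6 there was 1 (11.5%), and on Day 9 there were 3 (7.58%). None was called on Day 15 (6.01%), and none by DESeq2. On that day 6 of the 10 had an unadjusted p under 0.05 in edgeR, as had 6678 of all 13751 genes. There were 2 on Day 21 (10.4%). None was called on Day 30 (5.9%), and none by DESeq2, when 4 of the 10 and 5065 of all genes had an unadjusted p under 0.05 in edgeR. Day 40 had 1 (6.92%), Day 60 had 1 (4.23%), Day 90 had 2 (7.06%) and Day 120 had 4 (31.8%). The largest number was 7 on Day 150 (31.5%). Day 180 had 2 (18.7%), Day 210 had 2 (29.8%) and Day 240 had 1 (6.76%). On Day 270 none was called (0.00727%), and none by DESeq2, with 3 of the 10 and 4060 of all genes at an unadjusted p under 0.05 in edgeR. There were 6 animals to compare on each day from Day 180, of which 5 were LD animals.

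**Figure D3:**
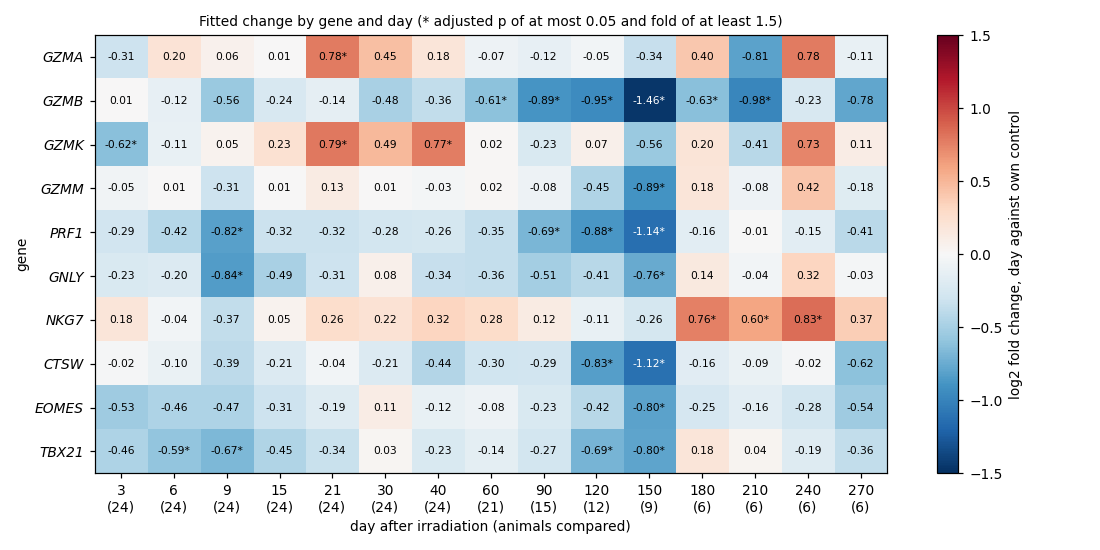
Fitted log2 fold change of each gene on each scheduled day against the animal's own control, with the number of animals compared under each day; asterisks mark an adjusted p of at most 0.05 with a fold change of at least 1.5. All calls on Day 9 and from Day 60 to 150 are lower (blue), and the higher calls (red) are of GZMA and GZMK on Day 21, GZMK on Day 40 and NKG7 on Day 180, 210 and 240.

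The membrane-lytic genes PRF1 and GNLY both fell on Day 9. PRF1 ranged from 75.6 to 769 CPM with a median of 324 in the 24 control samples, and from 83.6 to 343 CPM with a median of 168 in the 28 samples of Day 9. The ranges overlapped, but 22 of 24 animals were lower than their own control (log2 fold change -0.82 ± 0.14, adjusted p = 3.61e-05). GNLY had a median of 260 CPM in control samples (94.0 to 947) and of 131.1 CPM on Day 9 (61.5 to 538), and was lower in 21 of 24 animals (-0.84 ± 0.11, adjusted p = 1.43e-06). Both were called under each of the 7 alternatives tried, and all samples of Day 9 were of the series of their control. On Day 30 neither gene passed the test, with log2 fold changes of -0.28 and 0.08. PRF1 fell again on Day 90 (-0.69), Day 120 (-0.88) and Day 150 (-1.14). Its Day 90 call was lost without the replicate block. GNLY fell on Day 90 by less than 1.5-fold (-0.51, adjusted p = 0.0138), was at -0.41 on Day 120 (adjusted p = 0.142, lower in 8 of 12 animals), and was called on Day 150 (-0.76, adjusted p = 0.0140).

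The granzymes did not move together. GZMB was called lower on 6 days, from -0.61 on Day 60 to -1.46 ± 0.27 on Day 150 (adjusted p = 0.000747, lower in 9 of 9 animals). Its median was 324 CPM in control samples (117.3 to 1005.6), 165 CPM on Day 90 (81.5 to 537), 170 CPM on Day 120 (83.8 to 449) and 120.7 CPM on Day 150 (59.6 to 226.8). On Day 180, 6 samples ranged from 160 to 311 CPM. Within series C GZMB was also set against Day 30 of the same animal, when it stood at -0.48 against control. It was then at -0.20 on Day 60, -0.32 on Day 90 and -0.59 on Day 120. Day 150 was at -0.76, Day 180 at -0.10 and Day 210 at -0.44, and of these days only Day 150 was called. The calls of GZMB against control on Day 60 and Day 180 were lost with TMM scaling, with DESeq2 and in 1 fit over all samples that had a term for library series. That of Day 60 was also lost in such a fit with no series term (-0.54, under 1.5-fold), and that of Day 180 without animal B1502. GZMK fell on Day 3, from a median of 26.6 CPM (5.05 to 61.1) to 14.1 CPM (5.88 to 41.7), lower in 18 of 24 animals (-0.62 ± 0.14, adjusted p = 0.000356). With TMM scaling or DESeq2 this change was under 1.5-fold. On Day 21 GZMK rose to a median of 41.7 CPM (11.6 to 93.1), higher in 22 of 24 animals (0.79 ± 0.13, adjusted p = 6.91e-06), and on Day 40 to 39.02 CPM (13.5 to 85.5), higher in 23 of 24 (0.77 ± 0.11, adjusted p = 7.57e-06). The Day 21 call was kept in the 16 animals whose samples shared the series of their control (0.74), and the Day 40 call was not in the 4 such animals (0.56, adjusted p = 0.130). GZMA rose on Day 21 as well, from 19.0 ± 16.2 to 30.4 ± 21.6 CPM (SD), higher in 19 of 24 animals (0.78 ± 0.16 (SE), adjusted p = 0.000133), and it was at 0.79 in the 16 animals of the same series. Without the replicate block GZMA had an adjusted p of 0.0670 on Day 21. GZMM, a granzyme of NK cells and other innate lymphocytes, was called on 1 day, Day 150, at 7.44 ± 2.84 CPM against 14.9 ± 8.05 CPM in the controls of the same 9 animals (-0.89 ± 0.24, adjusted p = 0.00918).

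**Figure D4:**
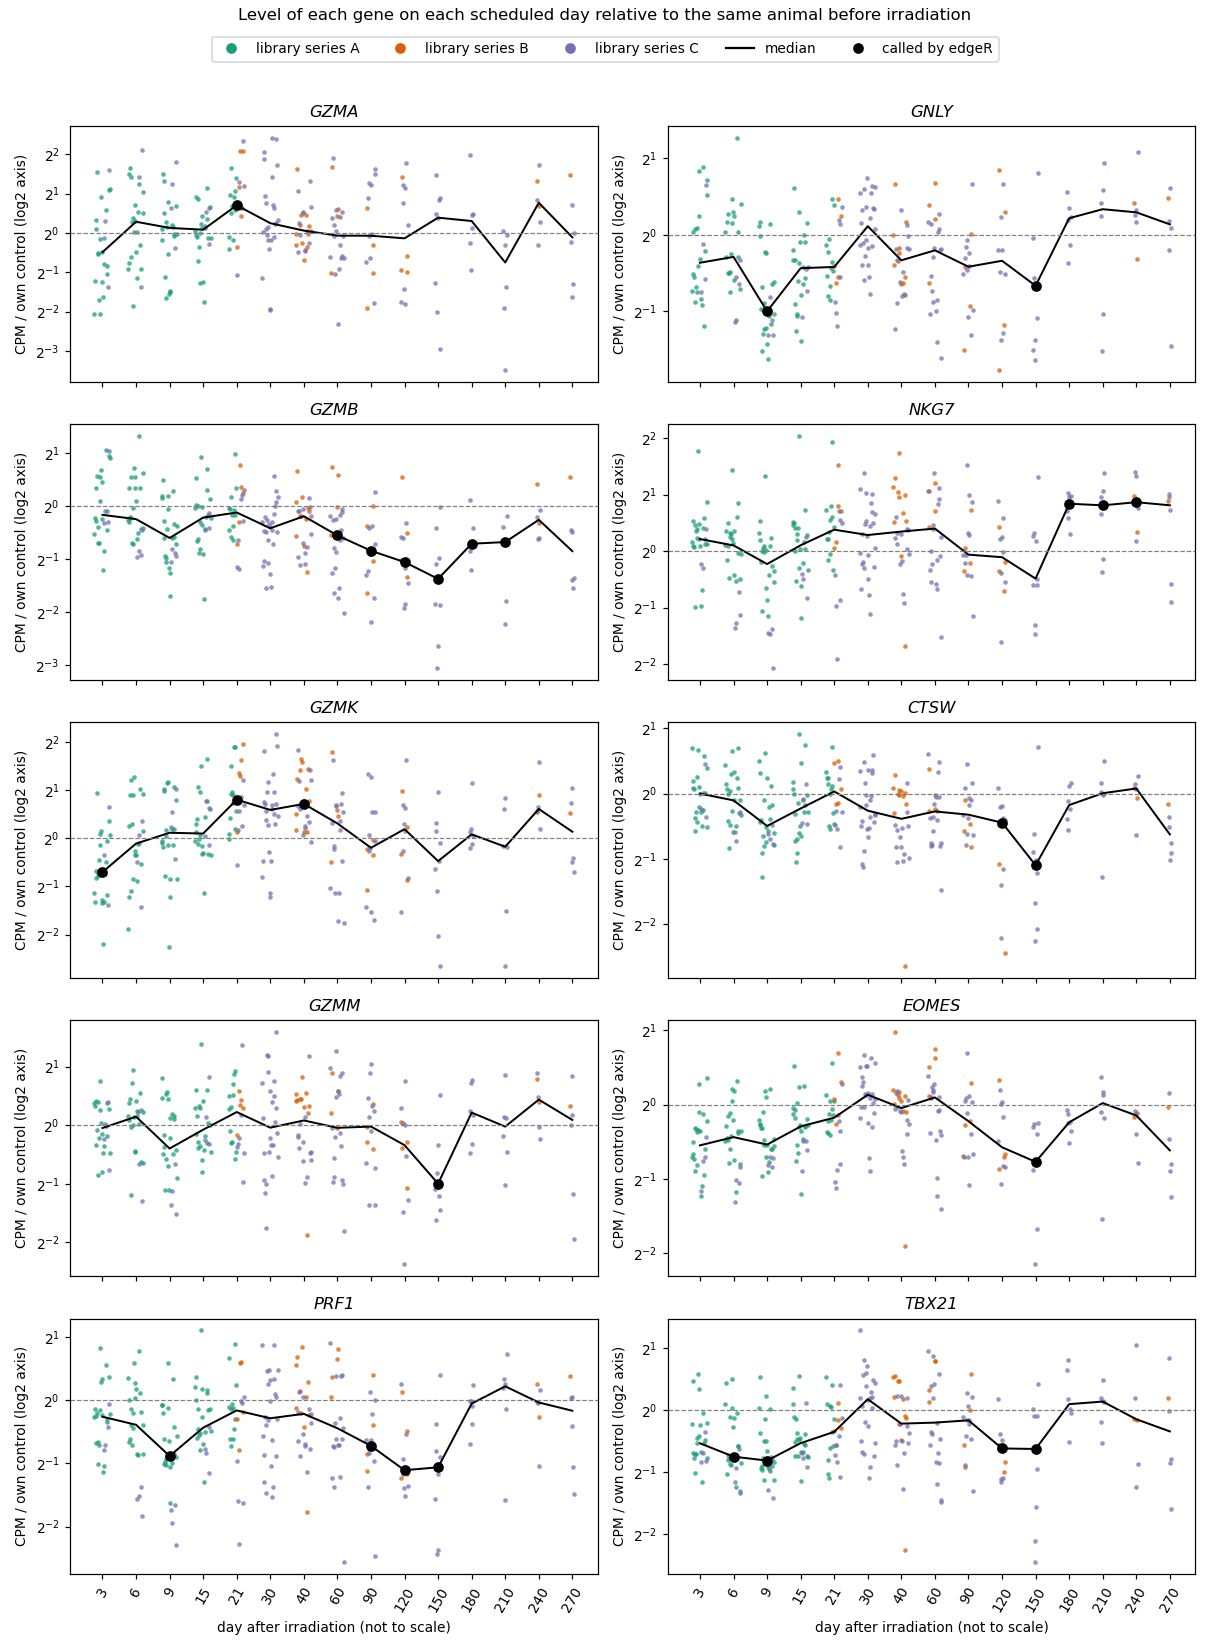
CPM of each gene in each animal on each scheduled day divided by the CPM of the same animal's control, on a log2 axis; points are animals coloured by library series, lines are medians and black points are days called by edgeR. PRF1, GNLY and TBX21 dip on Day 9, GZMK rises to Day 21 and 40, and 7 genes are called lower on Day 150.

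Of the 2 granule proteins CTSW was called lower and NKG7 higher, on different days. CTSW was called lower on Day 120 (-0.83, lower in 11 of 12 animals) and Day 150 (-1.12 ± 0.25, adjusted p = 0.00243, lower in 8 of 9). On Day 150 its 9 samples ranged from 15.5 to 77.7 CPM with a median of 22.97, against a median of 67.9 CPM (22.5 to 117.9) in all 24 control samples. The highest of the 9 values, 77.7 CPM, was of the 1 HD animal drawn that day, B2502. In these 9 animals alone the mean of CTSW went from 59.1 ± 21.3 to 29.2 ± 19.5 CPM (SD). NKG7 was at -0.11 and -0.26 on these 2 days and passed the test on neither. It was called higher on Day 180, 210 and 240, at log2 fold changes of 0.76, 0.60 and 0.83 in 6 animals, when CTSW was at -0.16, -0.09 and -0.02, with no call. On Day 180 it ranged from 175 to 301 CPM with a mean of 232.4 ± 43.2 CPM (SD), against 141 ± 46.3 CPM in the controls of these animals, and all 6 animals were higher. These calls did not hold in each fit. When all samples were fitted together, NKG7 had adjusted p values of 0.0527 on Day 180 and 0.0868 on Day 210 and stayed called on Day 240. With a term for library series added, they were 0.299, 0.358 and, on Day 240, 0.159. The calls of Day 210 and 240 were lost without the replicate block. They were also lost without single animals, that of Day 210 without B1003, B1004, B1503 or B2502 and that of Day 240 without B1003, B1004, B1502 or B1503.

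The T-box genes were lower than control from the earliest days. TBX21 had a median of 126.2 CPM in control samples (41.7 to 216), 92.7 CPM on Day 3 (50.5 to 151) and 73.9 CPM on Day 9 (37.5 to 159). It fell by the adjusted p on Day 3 (-0.46), Day 6 (-0.59), Day 9 (-0.67), Day 15 (-0.45) and Day 21 (-0.34), and it was called on Day 6 and Day 9. On Day 9, 20 of 24 animals were lower (adjusted p = 5.66e-06). TBX21 was called again on Day 120 (-0.69, adjusted p = 0.000413) and Day 150, and the Day 120 value came under 1.5-fold by DESeq2 (-0.55). The Day 6 value came under 1.5-fold with TMM scaling, with DESeq2 and without the filter. EOMES fell on Day 3 (-0.53), Day 6 (-0.46), Day 9 (-0.47) and Day 15 (-0.31), by less than 1.5-fold on each. On Day 30, TBX21 was at 0.03 and EOMES at 0.11, neither passing the test. On Day 9 as a whole, 8 of the 10 genes fell by the adjusted p alone, against 24.4% of all genes, and the exceptions GZMA and GZMK were at 0.06 and 0.05.

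Day 150 had the most calls of the 15 days. Of the 10 genes, 7 were called lower (GZMB, GZMM, PRF1, GNLY, CTSW, EOMES and TBX21), and the other 3 were at -0.34 (GZMA), -0.56 (GZMK) and -0.26 (NKG7). DESeq2 also called 7. The median of the 10 genes was -0.80 on the log2 scale and that of all genes -0.17. The fitted change was lower on another day for GZMA (-0.81 on Day 210), GZMK (-0.62 on Day 3), GNLY (-0.84 on Day 9) and NKG7 (-0.37 on Day 9). In the 9 animals PRF1 ranged from 54.3 to 303.9 CPM with a median of 135.5, and EOMES from 12.1 to 63.7 CPM with a median of 32.4 (-0.80 ± 0.20, adjusted p = 0.00557, lower in 9 of 9). Leaving out single animals kept 6 or 7 calls. The call that was lost was TBX21 (-0.80 ± 0.27, adjusted p = 0.0281), without any 1 of B1501, B1502, B1503 and B1506, and also without the replicate block.

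Since all samples of Day 30 and Day 150 were of series C, Day 150 was also set against Day 30 of the same animal, a comparison chosen after the data were seen. Day 30 itself followed irradiation. Against control, GZMK then stood at 0.49 (adjusted p = 0.0319 in edgeR), GZMA at 0.45 (adjusted p = 0.123) and GZMB at -0.48 (adjusted p = 0.0016), with no call. Differences from Day 30 are therefore not changes from control. On Day 150 all 10 genes were below Day 30, between -0.96 and -0.47, and 6 were called, against 19.3% of all genes. They were EOMES (-0.96, adjusted p = 0.0105), GZMK (-0.94, adjusted p = 0.0167), CTSW (-0.90, adjusted p = 0.0140), GNLY (-0.87, adjusted p = 0.00972), GZMM (-0.79, adjusted p = 0.0370) and GZMB (-0.76, adjusted p = 0.0236). On Day 120, 4 of the 10 were called lower than on Day 30 in 10 animals (23.3% of all genes), led by TBX21 (-0.92, adjusted p = 0.00510). On Day 60 there were 2 called lower in 20 animals (3.46%), and on Day 90 none in 13 animals (3.96%), with 5 at an unadjusted p under 0.05. On Day 180 none was called (8.17%), with 2 at an unadjusted p under 0.05, and NKG7 was at 0.39 (adjusted p = 0.224). On Day 210, 2 were called, GZMA at -1.47 and GZMK at -1.20 (13.4%). None was called on Day 240 (0.64%) or Day 270 (0.0436%), where 0 and 3 had an unadjusted p under 0.05. These comparisons used edgeR only, and for them no count of all genes at an unadjusted p is given.

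In the 6 animals followed to Day 270, GZMM, CTSW and PRF1 were low on Day 150 and higher on the next draw, while the medians on Day 150 were 0.64 for GZMA, 0.23 for NKG7, 0.02 for GZMK and -0.09 for TBX21. The median change from control was -0.98 for GZMM, -0.95 for CTSW and -0.93 for PRF1 on Day 150, and 0.21, -0.18 and -0.05 on Day 180. GZMB stayed below control in these medians, at -1.03 on Day 150, -0.71 on Day 180 and -0.68 on Day 210. It was nearer to control on Day 240, at -0.26, and at -0.91 on Day 270. The fitted change of GZMB on Day 240 was -0.23 (adjusted p = 0.453 in edgeR). Set directly against Day 150, a comparison chosen after the data were seen, all 10 genes were higher on Day 180. Their log2 differences ran from 0.03 (GZMA) to 0.97 (GZMM), with a median of 0.62, against 0.06 for all genes. Day 150 was the day with the most lower calls, and the part of that choice in these differences was not tested. None was called by edgeR or DESeq2, the smallest adjusted p was 0.527, and 6 had an unadjusted p under 0.05. No gene of all those tested was called (0%). The step from Day 90 to Day 120 was tested in 14 animals, where CTSW was called lower (-0.59, adjusted p = 0.0248), against 15.5% of all genes. TBX21 fell by 0.58 on the log2 scale (adjusted p = 0.0210), just under the 1.5-fold limit. TMM scaling, DESeq2, the fit without the filter and the fit without the replicate block each gave no call among the 10.

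The doses and the sexes were compared by testing the difference between the changes. No difference between LD and HD animals was called among the 10 genes at early time points, and none among all genes (0%). At an unadjusted p under 0.05 there were 2 of the 10, and 761 of all genes. NKG7 had a mean log2 change of 0.28 in 12 LD animals and of -0.25 in 12 HD animals (fitted difference -0.43 ± 0.19 (SE), unadjusted p = 0.0321 and adjusted p = 0.860 in edgeR). TBX21 had means of -0.34 and -0.66 (difference -0.31 ± 0.14, unadjusted p = 0.0390 and adjusted p = 0.860 in edgeR). Over Day 30 and 40 none of the 10 was called (0.0509% of all genes). Of all genes 1267 had an unadjusted p under 0.05 in edgeR, and of the 10 genes 3 had. The smallest was of EOMES, with mean changes of 0.20 in LD and -0.23 in HD animals (difference -0.37 ± 0.12, adjusted p = 0.274). DESeq2 called none of the 10 in either window. The 4 controls of series C were all of HD animals. On Day 21 the 16 animals with a sample of the series of their control held all 12 LD animals. The animals whose series differed that day were thus all HD. On Day 30 and 40 only the 4 HD animals with a control of series C had such a sample. Part of the dose difference can therefore not be told apart from series. Between 12 females and 12 males no early difference was called by edgeR or DESeq2 (0% of all genes). All 10 fitted differences, females minus males, were above 0, from 0.05 to 0.41, and 1 had an unadjusted p under 0.05 (NKG7, p = 0.0404 in edgeR).

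Among the 8 HD females, 4 had their last draw by Day 90 and 4 later, and their summed counts of Day 3 to 21 were compared. For B2506 and B2507, both with the later last draw, these sums held Day 6, 9 and 21 only, and for the other 6 animals also Day 3 and 15, so the sums of the 2 sets cover different days. None of the 10 genes was called (0% of all genes) by edgeR or DESeq2, and none had an unadjusted p under 0.05 in edgeR, beside 241 of all genes. In an exact two-sided permutation test the p values ran from 0.143 (EOMES and TBX21) to 0.686 (GZMK), where 4 against 4 animals allow 0.0286 at the smallest. NKG7 had means of 161 CPM in the animals with the earlier last draw and 108.6 CPM in the others, a log2 difference of 0.51 (exact p = 0.171). GZMA differed in sign from the rest, at 13.6 and 18.7 CPM.

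There were 8 animals, 4 of each dose, with a final draw between scheduled days, on Day 71 to Day 172, after signs of severe illness by the methods. Both this draw and the preceding one were of series C in all 8. All 10 fitted changes were above 0, from 0.07 (CTSW) to 0.69 (GZMA), with a median of 0.47, against -0.01 for all genes. None was called by edgeR or DESeq2 (0% of all genes), and the smallest adjusted p was 0.9997 in edgeR. Of all genes 248 had an unadjusted p under 0.05, and of the 10 genes 2 had. These were GNLY (0.49 ± 0.19, higher in 6 of 8 animals) and PRF1 (0.55 ± 0.22, higher in 6 of 8). Animals differed widely. TBX21 went from 34.6 CPM on Day 150 to 160 CPM on Day 172 in B1506 and from 61.9 CPM on Day 90 to 43.6 CPM on Day 94 in B2504, while GZMM changed by between -1.80 and 2.66 on the log2 scale.

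**Figure D5:**
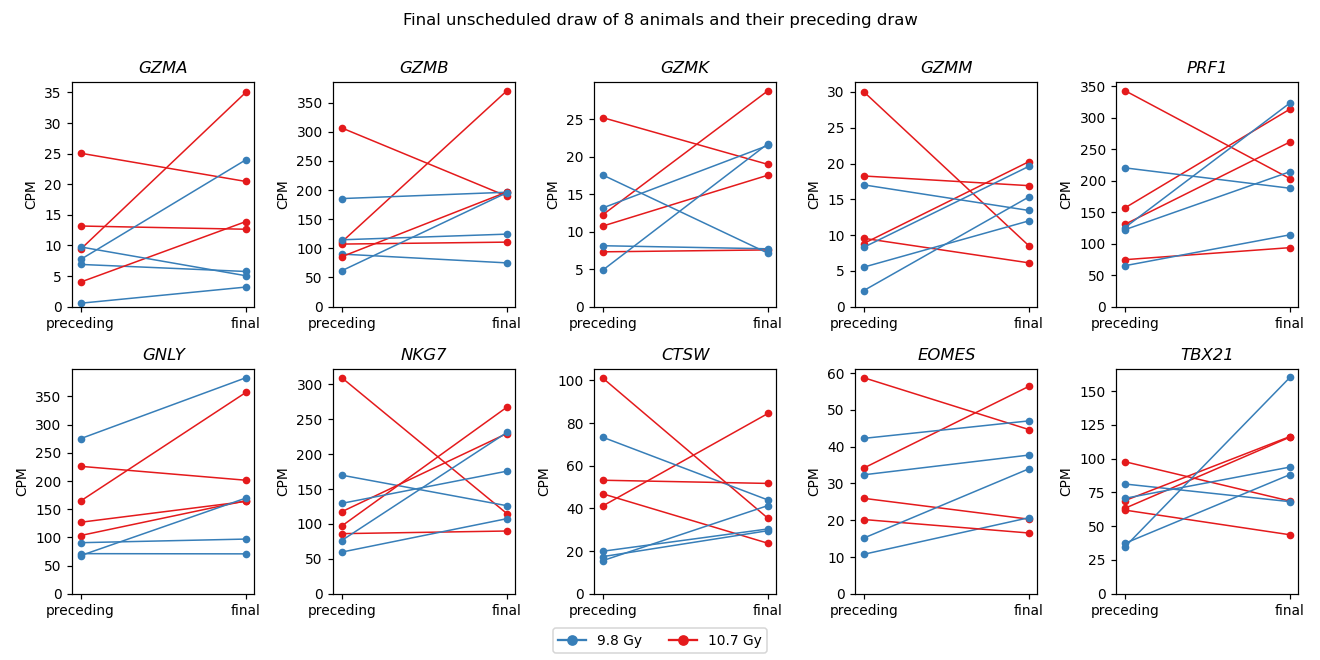
CPM of each gene at the preceding and the final draw of the 8 animals with a draw between scheduled days, 4 at 9.8 Gy (blue) and 4 at 10.7 Gy (red). Lines run in both directions in each panel, and PRF1, GNLY, GZMB and NKG7 were higher at the final draw in 6 of 8 animals.

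Within animals the genes rose and fell together to different degrees. After each animal's mean was subtracted, the Pearson correlation over all samples had a median of 0.57 over the 45 pairs. It was highest for PRF1 and NKG7 (0.88), followed by EOMES and TBX21 (0.76), and lowest for GZMA with GZMM (0.19), PRF1 (0.21) and CTSW (0.22). GZMA and GZMK were most like each other among the 10 (0.70). The median was 0.49 in the 120 samples of series A and 0.65 in the 150 of series C, and PRF1 with NKG7 was at 0.74 and 0.93. The 5 other genes with the highest mean correlation with the 10 were GZMH (0.70), GFI1 (0.65), IL2RB (0.65), S1PR5 (0.65) and MATK (0.64). The samples share animals, libraries and depth, so these values are descriptions.

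Of all 13751 genes tested 1919 were called higher and 2548 lower at late time points (32.5% together). Of 16 genes for making and releasing granules none was called at early or medium time points, and 7 were called higher and none lower at late time points. Those with the smallest adjusted p were STX11 (1.19, adjusted p = 6.77e-05), a syntaxin needed for granule release, SRGN (1.22), the proteoglycan that packs granzymes, and VAMP7 (0.78). These genes are also expressed by myeloid cells. Of 3 granzyme inhibitors SERPINB1 rose, by 0.80 at medium and 1.83 at late time points. Of 25 tested NK cell receptors and adaptors 1 fell at early time points, when 7.53% of all genes were called, NCR1 (-0.64, adjusted p = 1.94e-06), which encodes the activating receptor NKp46. At late time points 3 of the 25 rose and 1 fell, a smaller share than over all genes, and the 3 were FCER1G (1.13), TYROBP (1.03) and NCR3 (0.79), of which the adaptors FCER1G and TYROBP are also used by myeloid cells. Among 11 other effector transcription factors ZNF683, known as Hobit, fell at early time points (-0.68). At late time points 3 of the 11 fell and 2 rose, among them TOX (-0.88), IKZF3 (-0.77) and HOPX (0.99). Of 12 cytokine genes and receptors 2 rose at medium and at late time points, IL18R1 and IL18RAP (3.06 and 3.14 at late time points). Another 4 fell at late time points, led by IL12RB2 (-0.95), a receptor chain through which interleukin 12 acts on these cells. All 8 neutrophil genes were also called higher at late time points, and which blood cells carried IL18R1 and IL18RAP was not tested.

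Markers of other blood cells moved at the same time, and their part in the values above was not tested. Of 12 T cell receptor and co-receptor genes 7 were called lower and none higher at late time points, beside 2548 lower and 1919 higher of all 13751 genes, with a median log2 fold change of -0.61. CD4 (-1.11), CD247 (-0.77) and LCK (-0.92) had the smallest adjusted p among them. Of 7 genes of naive lymphocytes 5 were lower and 1 higher (median -0.94), and of 9 B cell genes all 9 (median -2.03), while the median of the 10 cytotoxic genes was -0.33. All 8 neutrophil genes and all 6 platelet genes were higher, and 4 of 7 monocyte genes. The summed neutrophil level ranged from 827 to 8949 CPM in control samples and from 1421 to 16982 CPM in late samples. The summed level of the 10 genes had a median of 1421 CPM in control samples (421 to 3199), 1133 at early, 1183 at medium and 1112 at late time points (361 to 2266). On Day 9 (708 genes higher and 334 lower of all tested), when no T cell receptor gene was called and the median of that list was -0.12, 8 of 9 B cell genes were lower, 9 of 9 erythroid genes were higher, and the median of the 10 genes was -0.43. No neutrophil gene was called that day, and the median of that list was -0.16. Of 25 NK cell receptors and adaptors 1 was higher and 3 were lower on Day 9 (median 0.04). Of 6 platelet genes 1 was lower (median -0.41). On Day 150 (1648 higher and 2677 lower of all tested), 8 of 12 T cell receptor genes were lower (median -0.83), beside a median of -0.80 for the 10 genes, and 6 of 8 neutrophil genes were higher. Of the 25 NK cell receptors and adaptors 3 were higher and 1 was lower that day (median -0.32). On Day 21 (1052 higher and 375 lower of all tested) all 9 erythroid genes were higher (median 2.03), and 4 of 8 neutrophil genes were lower.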

How the data were processed

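Whole blood RNA of 28 macaques was sequenced, and each sample was assigned to its animal, day and dose by its title. The authors deposited raw counts of reads per gene, made after trimming and alignment. The submitters' processing notes name cutadapt 2.10, STAR 2.7.6a, Subread 2.0.1 and the assembly Mmul_10, and whether counting used strand is not given in the sources used here. The authors also deposited log2 values after upper quartile scaling, used here with limma as an alternative. Genes with at least 3 counts in 80% of the samples were kept (13751). Counts were scaled by the upper quartile and tested with edgeR 4.0.16 (quasi-likelihood test, R 4.3.3) with the animal as replicate block, which pairs samples of the same animal, and Benjamini-Hochberg adjustment over all tested genes. CPM used these scaled library sizes, and log2 CPM a prior count of 2. SE is the log2 fold change divided by the square root of F. Alternatives were TMM scaling, no filter on low counts, DESeq2 1.42.0, no replicate block, samples of the series of the control, 1 fit over all samples with and without library series, limma 3.58.1 and leaving out single animals. Total counts of 2840219 to 23638161 set the precision, and limits for a count of 0 (3 counts) cover counting error only. The 10 genes and the gene lists were chosen with earlier results of these data known. Genes named from a list are the 3 called with the smallest adjusted p. The edgeR steps were tested on simulated data. Exact permutation tests were two-sided. Windows were early (Day 3 to 21), medium (to Day 90) and late.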

Additional observations from a re-analysis of the deposited data

Results flagged for a closer look

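The changes of each gene were examined for single animals on the scheduled days with 4 to 10 animals (change from control, Day 150 to 270) and at the final draws (change from the preceding draw), 60 sets in all. Of these, 5 held an animal far from the others by Dixon's criterion, which chance meets in about 1 of 20. On Day 180 GZMK had a log2 change of 1.14 in B1503, against -0.20 to 0.20 in the other 5 animals. On Day 210, B1502 stood below the other 5 animals for PRF1 (-1.57, against -0.13 to 0.73), CTSW (-1.27, against -0.03 to 0.49) and EOMES (-1.53, against -0.18 to 0.38). On Day 240 CTSW was at -0.62 in B1503, against -0.06 to 0.27.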

How the results depend on the processing

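Early counts, the dose and sex differences, the final draws, the HD females and Day 180 against 150 gave 0 calls among the 10 genes under each alternative run. At medium time points the count went from 0 to 2 in the 4 animals of the same series. At late time points it went from 2 to 1 with TMM scaling, without the filter and with DESeq2, and Day 120 against 90 went from 1 to 0 under these and with no replicate block. The cause was not tested. Without single animals the late count ranged from 1 to 3 (1 without B1006), Day 150 from 6 to 7, Day 180 from 1 to 2 (1 without B1502), Day 210 from 1 to 2 (1 without B1004, B1503 or B2502) and Day 240 from 0 to 2 (0 without B1003, B1004, B1502 or B1503, 2 without B2502), while the final draws, the HD females and Day 180 against 150 ranged from 0 to 0. Over all days 27 calls became 24 with TMM scaling, 25 with DESeq2, 23 with no replicate block and 30 in 1 fit over all samples. For Day 60 to 270 there were 19 calls against control and 14 against Day 30 of series C, in part of other genes. On Day 60 GZMB was called against control, and GZMA and GZMK against Day 30. On Day 210 they were GZMB and NKG7 against control, and GZMA and GZMK against Day 30. Against Day 30 NKG7 was called on no day and GZMB on Day 150 only. The Day 30 reference, Day 180 against 150 and leaving out animals on single days were chosen after seeing the data. Values that changed sign were GZMK (-0.047) and NKG7 (-0.051) at early time points with no replicate block. At medium time points they were GZMM with no replicate block (-0.021), in the same series (-0.058) and with limma (-0.032), and NKG7 in the same series (-0.42). At late time points they were GZMA with TMM scaling (0.020), no filter (0.013), DESeq2 (0.034) and no replicate block (0.20), and GZMK with TMM scaling (0.056), no filter (0.050) and DESeq2 (0.085). None of these passed the test. On Day 270 edgeR called 1 gene of all tested and DESeq2 2344. With DESeq2 the share of higher calls among all genes went from 58.8 to 72.2% on Day 40, 54.6 to 67.6% on Day 60, 39.95 to 55.5% on Day 120, 47.2 to 58.5% on Day 180, 43.1 to 57.9% on Day 210, 48.2 to 58.2% on Day 240 and 50.2 to 70.02% for Day 120 against 90, and with TMM scaling from 52.4 to 62.7% on Day 6.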
